A study of Gallus gallus with 6 samples.

Results

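The genes described here encode the proteasome, its activators and its assembly chaperones. They were found by symbol in the deposited gene table, as PSM followed by a letter from A to G and a digit. The rule found 38 of 16317 genes, and 13060 of these could be tested. One of the 38, PSMC3IP, matches by its letters only: it encodes a recombination cofactor and not a proteasome part, so it is given apart. The other 37 were all tested, and none was lost to the filter on low counts. They comprise 12 core subunits, 15 subunits of the regulatory particle, 3 activators or inhibitors, and 7 assembly chaperones.

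RNA sequencing had been run on the inner lining of the jejunum, the middle stretch of the gut, from 28-week-old hens of the SUT breeder breed. Control hens were kept at 23 °C without heat stress, and the other group was held at 36 °C for 6 h. RNA of 4 hens was pooled per library, with 12 hens per group, so n = 3 pools a group throughout and the spread is one between pools. The comparison addresses which genes respond to acute heat in the gut.

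The libraries held between 11513427 and 13805395 estimated counts. Markers of enterocytes, the absorptive cells, were present: 7 of 8 were in the table, with summed FPKM of 8160 to 13000 in control and 7970 to 13900 in heat pools. FPKM is a level of fragments scaled by gene length and library size. Heat pools 2 and 3 stood apart from the rest, with library weights of 0.675 and 0.505 in limma's voom, against 1.29 to 1.34 for the other pools. Deviations also followed gene length: the Spearman correlation across genes ran from -0.266 to -0.0517 in control pools and was 0.272, 0.244 and -0.153 in the 3 heat pools. The proteasome genes are short, with a median of 1002 bp against 2553 bp over all tested genes.

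The proteasome degrades proteins that carry ubiquitin chains. Its barrel-shaped core holds the cutting sites on inner beta rings, closed off by outer alpha rings. The regulatory particle caps the core: its base unfolds the substrate with a ring of ATPases, and its lid removes the ubiquitin. In mammals the transcription factor NFE2L1 is known to raise proteasome genes together when proteasome activity is short, and proteins damaged by heat are among the substrates.

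Most subunits had lower levels in the heat pools, and none of the 37 genes passed the adjusted test of edgeR. Of the 4 chaperones of core assembly with PSM names, 3 had positive fitted changes, where 6485 of 13060 tested genes did. Of the 37 genes, 31 had a negative fitted change, against 50.3% of all tested genes. The median log2 fold change was -0.27, against -0.0027 over all tested genes. In the quasi-likelihood test of edgeR, 0 proteasome genes were lower and 0 higher at an adjusted p under 0.05, against 0.0% and 0.023% of all tested genes. At an unadjusted p under 0.05, edgeR counted 14 lower and 0 higher, where all tested genes gave 9.03% lower and 8.87% higher. DESeq2 called PSMD14 and PSMA5 lower at an adjusted p under 0.05 and 0 higher, against 2.26% and 2.76% of the genes that it adjusted. At an unadjusted p under 0.05 it counted 15 lower and 0 higher, against 6.66% and 7.66%. Those shares are over 15986 genes, without the filter on low counts. Limma-trend on log2(FPKM + 1) called 0 after adjustment, against 0.247% lower and 0.102% higher of its 11724 genes. Unadjusted, it counted 24 lower and 0 higher, against 13.8% and 5.56%. In bulk tissue, fewer cells of a type and less RNA per cell cannot be told apart.

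The 3 heat pools lay wholly below the 3 control pools for 19 of the 37 genes, against 12.9% of all tested genes. They lay wholly above for 3, PSMG2, PSMG3 and PSMD5, against 11.6%, and overlapped for 15. The count of 14 genes rested on the pools. It was 24 without heat pool 3, where 11.8% of all genes were lower and 11.5% higher. It was 7 without heat pool 1, heat pool 2 or control pool 1, and 9 without control pool 2. Over all genes, 1179 were lower at that threshold with all pools kept. Without heat pool 1, heat pool 2, control pool 1 and control pool 2 in turn, 1110, 883, 865 and 903 were. After adjustment 0 passed without heat pool 3, where 0.00754% of all genes were lower and 0.0452% higher. The median change was -0.35 without heat pool 3 and -0.18 without heat pool 2.

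**Figure D1:**
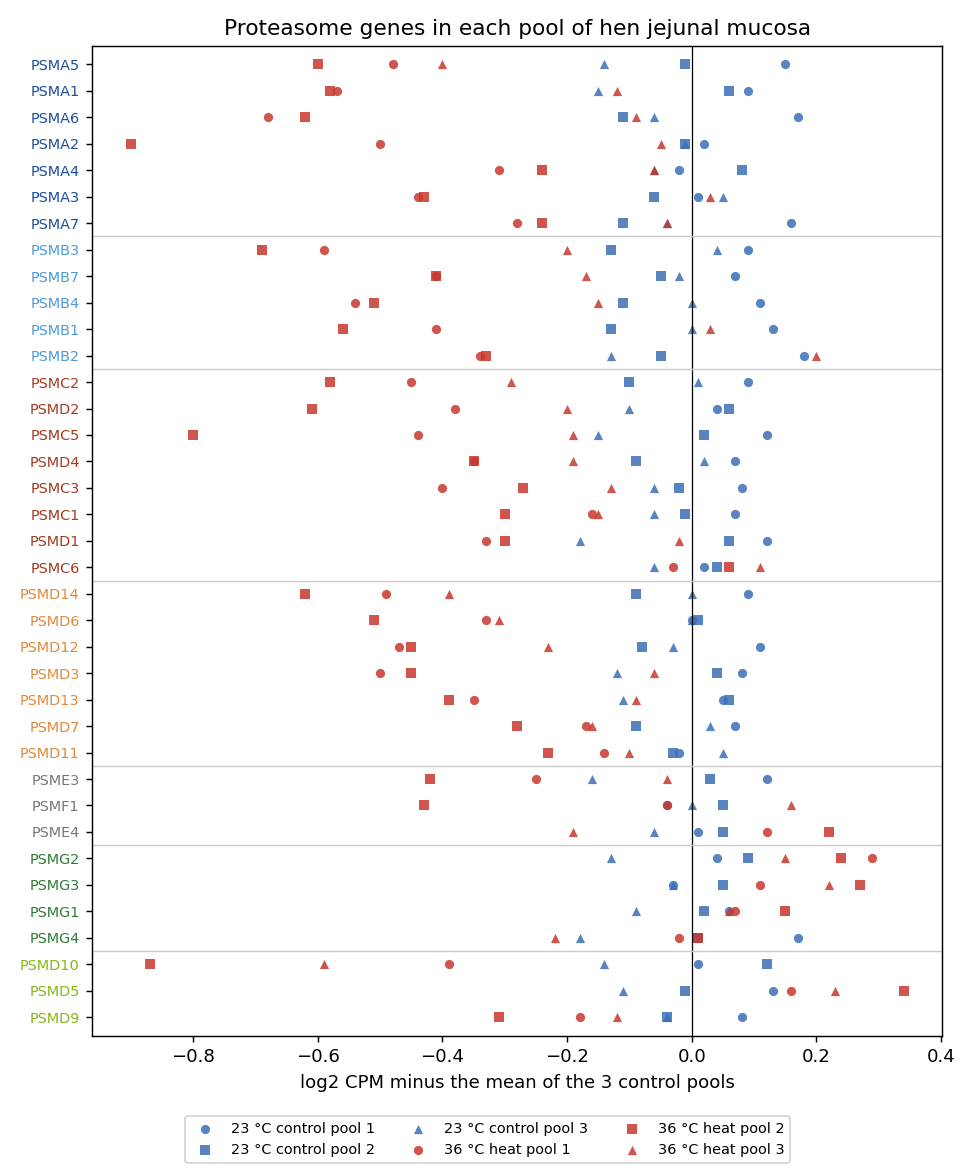
Level of each of the 37 proteasome genes in each pool, as log2 CPM minus the mean of the 3 control pools (x axis). Blue symbols are control pools and red symbols heat pools, and grey lines part, from top to bottom, alpha ring, beta ring, base, lid, activators with inhibitor, core assembly and base assembly chaperones. Heat pools 1 and 2 lie left of every control pool for 30 genes, heat pool 3 lies nearer to the controls, and PSMG2, PSMG3 and PSMD5 lie to the right.

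All 7 alpha ring subunits of the core had negative fitted changes, from -0.18 (PSMA7) to -0.50 (PSMA5), with a median of -0.41. PSMA5 (gene 426937) measured 140.3, 125.8 and 114.5 CPM in controls against 90.3, 83.2 and 95.7 CPM under heat. CPM are counts scaled by library size, and values by pool are always given in the order of pools 1, 2 and 3. Every heat pool was below every control pool. The mean went from 126.9 ± 12.9 to 89.7 ± 6.29 CPM (SD, n = 3 pools). The fitted log2 fold change was -0.50 (SE 0.12), or 70.7% of the control level (edgeR adjusted p = 0.118, DESeq2 adjusted p = 0.0247).

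The other alpha subunits differed in how far heat pool 3 followed. PSMA2 measured 234, 228 and 228 CPM in controls against 163, 123 and 222 CPM under heat. Its controls were within a few CPM of each other, heat pool 2 was far below them and heat pool 3 just below. The log2 fold change was -0.44 (SE 0.20), and -0.68 without heat pool 3. PSMA6 (-0.45, SE 0.17) and PSMA1 (-0.41, SE 0.15) reached unadjusted p of 0.0343 and 0.0266 in edgeR, though heat pool 3 overlapped the controls in CPM. PSMA3 (-0.27, SE 0.15), PSMA4 (-0.20, SE 0.11) and PSMA7 (-0.18, SE 0.13) did not reach an unadjusted p under 0.05. On FPKM, heat pool 3 was at 202.5 for PSMA6 and 145.9 for PSMA1, below the lowest controls of 223.0 and 156.4.

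Of the beta ring, 5 subunits were measured and all 5 had negative fitted changes, with a median of -0.33. The cutting subunits PSMB5 and PSMB6 and the tissue-specific or immune-induced subunits PSMA8, PSMB8, PSMB9, PSMB10 and PSMB11 are not analysed here. PSMB3 (gene 419997), a structural subunit, measured 156, 134 and 151 CPM in controls against 97.7, 91.2 and 128 CPM under heat. No heat pool reached a control pool, and heat pool 3 came nearest. The log2 fold change was -0.48 (SE 0.15, edgeR adjusted p = 0.167), or 71.8% of the control level.

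PSMB4 (gene 429986), another structural beta subunit, had the highest level of all 37 genes at 23 °C, with 525 ± 33.5 FPKM. It measured 330.0, 282 and 304 CPM in controls against 209.9, 214 and 275 CPM under heat, again without overlap. Its log2 fold change was -0.39 (SE 0.15, edgeR adjusted p = 0.22). PSMB7, which carries the trypsin-like cutting site, was at -0.33 (SE 0.12) with separate groups. PSMB1 (-0.29, SE 0.17) and PSMB2 (-0.14, SE 0.17) overlapped. In CPM heat pool 3 was the highest of all pools for PSMB2, at 145 CPM against 116 to 143.5 CPM in controls. On FPKM control pool 1 was the highest, at 156.9 against 146.7 in heat pool 3.

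Among 8 genes of the base with PSM names, 7 had negative fitted changes, against 50.3% of all tested genes. In edgeR 4 were lower at an unadjusted p under 0.05, against 9.03%, and 6 had all heat pools below all controls, against 12.9%. PSMC2 (gene 417716), 1 of the ATPases that unfold substrates, measured 152, 133 and 143 CPM in controls against 104.5, 95.4 and 117 CPM under heat. All heat pools were below all controls. The log2 fold change was -0.43 (SE 0.12, edgeR adjusted p = 0.138), or 74.0% of the control level. The ATPases PSMC5 (-0.46, SE 0.16), PSMC3 (-0.26, SE 0.12) and PSMC1 (-0.20, SE 0.10) were also lower in every heat pool than in every control pool.

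The ATPase PSMC6 (gene 423586) was the exception in the base. It measured 161, 163 and 152 CPM in controls against 155, 165.5 and 171 CPM under heat. The groups overlapped, and the log2 fold change was 0.05 (SE 0.10, edgeR adjusted p = 0.857). On the FPKM scale the sign turned, to -0.01 by limma-trend. PSMC4 is not analysed here.

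Of the base's other subunits, PSMD2 (gene 425294), a scaffold of the regulatory particle, measured 112, 113.5 and 102 CPM in controls against 83.8, 71.2 and 95.2 CPM under heat. Every heat pool was lower than every control pool. The log2 fold change was -0.39 (SE 0.13, edgeR adjusted p = 0.185). PSMD4, a receptor for ubiquitin chains, was at -0.30 (SE 0.11) and PSMD1, the other large scaffold, at -0.21 (SE 0.13), the latter with overlapping groups.

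All 7 lid subunits with PSM names had negative fitted changes, with a median of -0.33, against 50.3% negative among all tested genes. All heat pools were below all controls for 5 of them, against 12.9%. SEM1, a lid subunit named otherwise, was at 0.06 (SE 0.13) with overlap and is counted with the bound factors below. PSMD14 (gene 424189), the enzyme that cuts ubiquitin chains off substrates before they enter the core, measured 86.5, 76.5 and 81.2 CPM in controls against 57.9, 52.7 and 62.0 CPM under heat. The gap between the lowest control and the highest heat pool was wider than the range of either group. The log2 fold change was -0.50 (SE 0.11), or 70.7% of the control level. It had the smallest p of the 37 genes, with an edgeR adjusted p of 0.102 and a DESeq2 adjusted p of 0.0209.

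PSMD6 (gene 416079), a structural lid subunit, measured 91.9, 92.5 and 92.0 CPM in controls against 73.3, 64.5 and 74.3 CPM under heat. The controls hardly differed and all heat pools lay below them (-0.38, SE 0.10, edgeR adjusted p = 0.133). PSMD12 (gene 417425), also structural, measured 107, 94.5 and 97.4 CPM in controls against 71.6, 72.8 and 84.6 CPM under heat. Its groups were separate as well (-0.39, SE 0.11, edgeR adjusted p = 0.153). PSMD7, the inactive partner of PSMD14, was at -0.20 (SE 0.10), and PSMD11 at -0.16 (SE 0.10), both without overlap. PSMD3 (-0.33, SE 0.14) and PSMD13 (-0.27, SE 0.12) overlapped through heat pool 3 in CPM, but not on FPKM. PSMD8 is not analysed here.

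The alternative caps and the inhibitor had overlapping groups, and the activators PSME1 and PSME2 are not analysed here. PSME3 (gene 420017), a nuclear activator that opens the core without ubiquitin, measured 89.1, 83.7 and 73.4 CPM in controls against 68.9, 61.2 and 79.8 CPM under heat. Only heat pool 3 reached into the control range (-0.23, SE 0.13, edgeR adjusted p = 0.396). PSME4 (gene 421218), an activator known for its role in chromatin, had the lowest level of all 37 genes, 9.26 ± 0.43 FPKM at 23 °C. It measured 63.0, 64.7 and 59.8 CPM in controls against 68.0, 72.7 and 54.6 CPM under heat, so heat pools lay on either side of the controls. Its log2 fold change of 0.06 (SE 0.13, edgeR adjusted p = 0.852) turned to -0.05 once the trend on gene length was removed. PSMF1, which inhibits the core, was at -0.08 (SE 0.15), and at 0.07 without heat pool 2.

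Of the 4 PSMG chaperones that build the core, 3 had positive fitted changes, where 6485 of 13060 tested genes did. At an unadjusted edgeR p under 0.05, 0 of the 4 were lower and 0 higher, against 9.03% and 8.87% of all tested genes. POMP, a core chaperone named otherwise, was at -0.07 (SE 0.12) with overlap and is counted with the bound factors below. PSMG1 and PSMG2 form one pair and PSMG3 and PSMG4 another, and they assemble the alpha ring. PSMG2 (gene 421040) measured 27.5, 28.3 and 24.3 CPM in controls against 32.5, 31.4 and 29.6 CPM under heat. In CPM each heat pool was above each control pool, with a log2 fold change of 0.22 (SE 0.12, edgeR adjusted p = 0.365). On FPKM its groups overlapped, with 33.47 in heat pool 3 against 35.68 in control pool 2. PSMG3 was above in every heat pool on both scales (0.20, SE 0.11, edgeR adjusted p = 0.379). After removal of the trend on gene length, PSMG2 and PSMG3 reached unadjusted p of 0.0287 and 0.023 in edgeR, at 0.33 (SE 0.12) and 0.31 (SE 0.11), where 9.2% of all genes were higher at that threshold. PSMG1 was at 0.09 (SE 0.11) and PSMG4 at -0.08 (SE 0.16), both with overlap. PSMG4 turned to 0.06 with the length trend removed and to 0.01 without control pool 1.

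The 3 chaperones of base assembly with PSM names differed among themselves. PSMD10 (gene 422351), also named gankyrin, measured 21.2, 22.9 and 19.1 CPM in controls against 16.04, 11.46 and 13.96 CPM under heat. All heat pools were below, and the log2 fold change of -0.61 (SE 0.17, edgeR adjusted p = 0.141) was the furthest from 0 among the 37 genes, at 65.5% of the control level. PSMD9 was at -0.20 (SE 0.10), also without overlap. PSMD5 measured 38.7, 35.0 and 32.7 CPM in controls against 39.6, 45.0 and 41.5 CPM under heat, higher in each heat pool than in any control (0.25, SE 0.12, edgeR adjusted p = 0.317). On FPKM the groups of PSMD5 overlapped, with 13.96 in heat pool 3 against 14.04 in control pool 1.

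**Figure D2:**
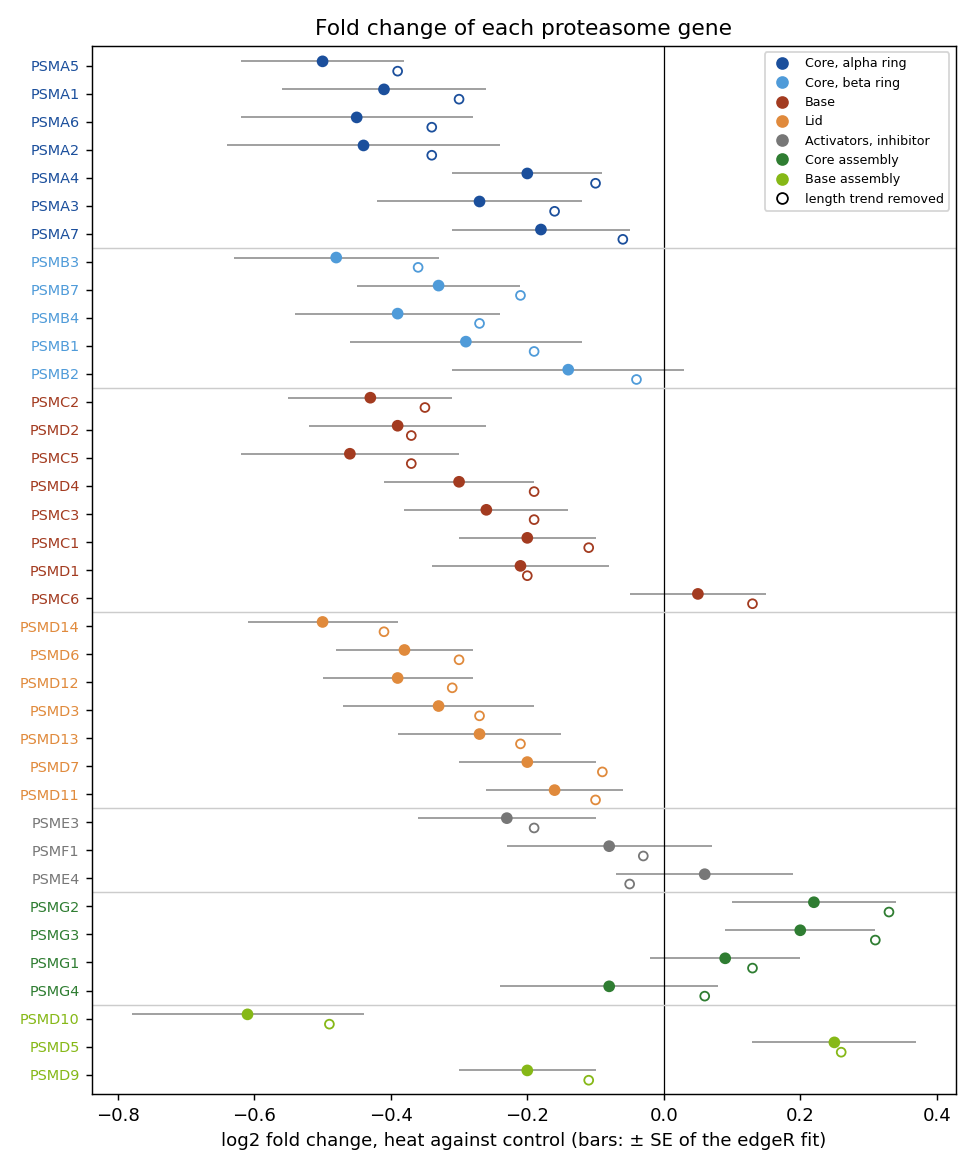
Log2 fold change of each proteasome gene, heat against control (x axis). Filled points with bars show the edgeR fit ± SE, open points the fit after removal of each library's trend on gene length, and colours the part of the proteasome. The subunits of core, base and lid shown lie left of 0 except PSMC6, and PSMG1, PSMG2, PSMG3 and PSMD5 lie right of it in both fits.

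Gene length moved with these values. With the trend on length removed, the median over the 37 genes was -0.19 and 31 were still negative. Then 11 proteasome genes lay under an unadjusted edgeR p of 0.05 in the lower direction and 2 in the higher, against 8.28% and 9.2% of all tested genes. After adjustment 0 did in either, against 0.0% and 0.0306%. With heat pool 3 also left out, a setting chosen after seeing the data, 19 were lower and 2 higher, against 10.5% and 10.3%, and 0 after adjustment, against 0.0% and 0.0226%. With the trend removed and all 6 pools kept, PSMD14 was at -0.41 (SE 0.09), PSMA5 at -0.39 (SE 0.10) and PSMC2 at -0.35 (SE 0.10), while PSMA7 was at -0.06 (SE 0.11) and PSMB2 at -0.04 (SE 0.15).

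Heat pool 3 had the highest CPM of the heat pools for all 12 core and all 15 regulatory particle genes, against 33.5% of all tested genes. The lowest CPM was in heat pool 2 for 6 core and 9 regulatory particle genes, and in heat pool 1 for the other 6 of each. On the deposited FPKM heat pool 3 was not always the highest. Heat pool 1 was highest for PSMA5, PSMC1, PSMD6, PSMD7, PSMD11 and PSMD14, and heat pool 2 for PSMC6. By pool, the median deviation from the control mean over the 37 genes was 0.077, -0.011 and -0.057 on the log2 scale for controls and -0.35, -0.41 and -0.12 under heat. With the length trend removed, these medians were 0.049, 0.016 and -0.052 for controls and -0.23, -0.28 and -0.088 under heat. Heat pools 1 and 2 lay below all controls for 30 of 37 genes, against 21.6% of all tested genes. For the alpha ring the median in heat pool 3 was -0.057, next to the -0.055 of control pool 3. For the lid it was -0.16, below the control range of -0.032 to 0.067. For core assembly chaperones with PSM names the medians were 0.09, 0.19 and 0.10 in the heat pools.

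**Figure D3:**
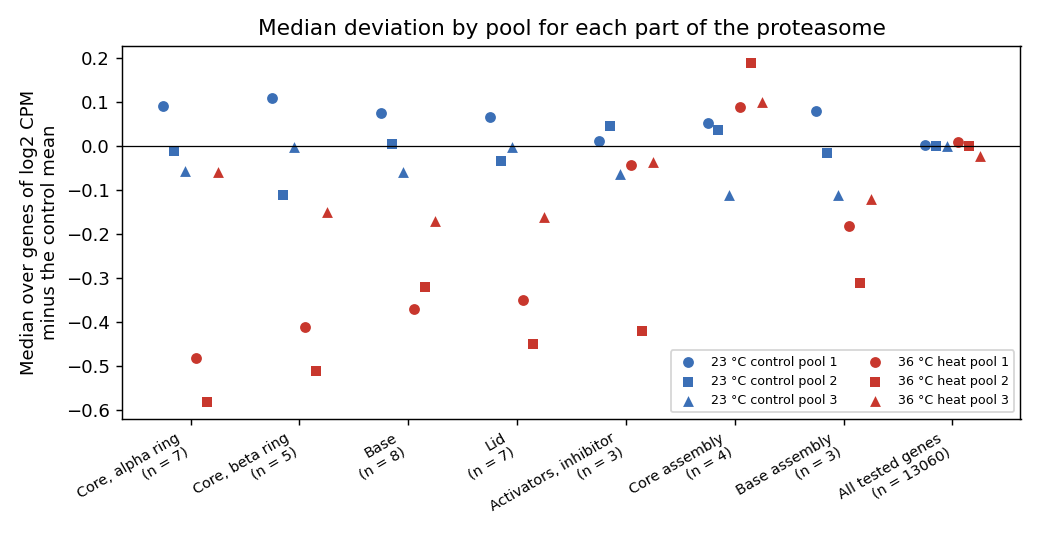
Median over the genes of each part of the proteasome of log2 CPM minus the control mean (y axis), for each pool. Blue symbols are control and red symbols heat pools, with the number of genes below each name. In core, base and lid, heat pools 1 and 2 lie between -0.32 and -0.58 and heat pool 3 between -0.057 and -0.17, while all tested genes lie near 0 in every pool.

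Levels per gene length showed how the parts were expressed at 23 °C. Core subunits ranged from 141 FPKM (PSMB2) to 525 FPKM (PSMB4), with a median of 273 FPKM. Regulatory particle subunits ranged from 37.2 FPKM (PSMD1) to 183 FPKM (PSMD7), with a median of 99.7 FPKM. Assembly chaperones with PSM names lay between 13.01 FPKM (PSMD5) and 78.6 FPKM (PSMD9). Of the 37 genes, 36 were above the median level of all tested genes, 10.6 FPKM, and 21 were in the top 10%. In this order several neighbours did not differ beyond their spread: PSMA6 and PSMB1 were at 238 ± 21.6 and 233.5 ± 17.5 FPKM, and PSMC3 and PSMC1 at 141 ± 6.11 and 140.2 ± 5.5 FPKM.

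The summed FPKM of the 12 core subunits went from 3362 ± 152 to 2539 ± 302, or 75.5% of the control level. For the 15 regulatory particle subunits it went from 1534 ± 50.2 to 1209 ± 65.2 (78.8%). For the 4 core assembly chaperones with PSM names it was 155 ± 11.2 and 158 ± 13.7 (102%). POMP, a core chaperone outside this sum, was at 145.1 ± 3.99 FPKM in control and 133.0 ± 8.4 FPKM in heat pools. The mean level per gene of the 4 PSM-named chaperones was 0.137, 0.149 and 0.13 times that of a core subunit in control pools 1, 2 and 3. In heat pools 1, 2 and 3 it was 0.204, 0.217 and 0.149 times. Heat pools 1 and 2 were above the controls, and heat pool 3 was level with control pool 2. The lid stayed close to the base, at 0.834 to 0.862 times its mean level in control and 0.82 to 0.834 times in heat pools. These are sums and ratios of deposited FPKM, without the scaling factors used for CPM and given with no test. The median log2 fold change over all genes was -0.057 by limma-trend on log2(FPKM + 1), against -0.0027 by edgeR.

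**Figure D4:**
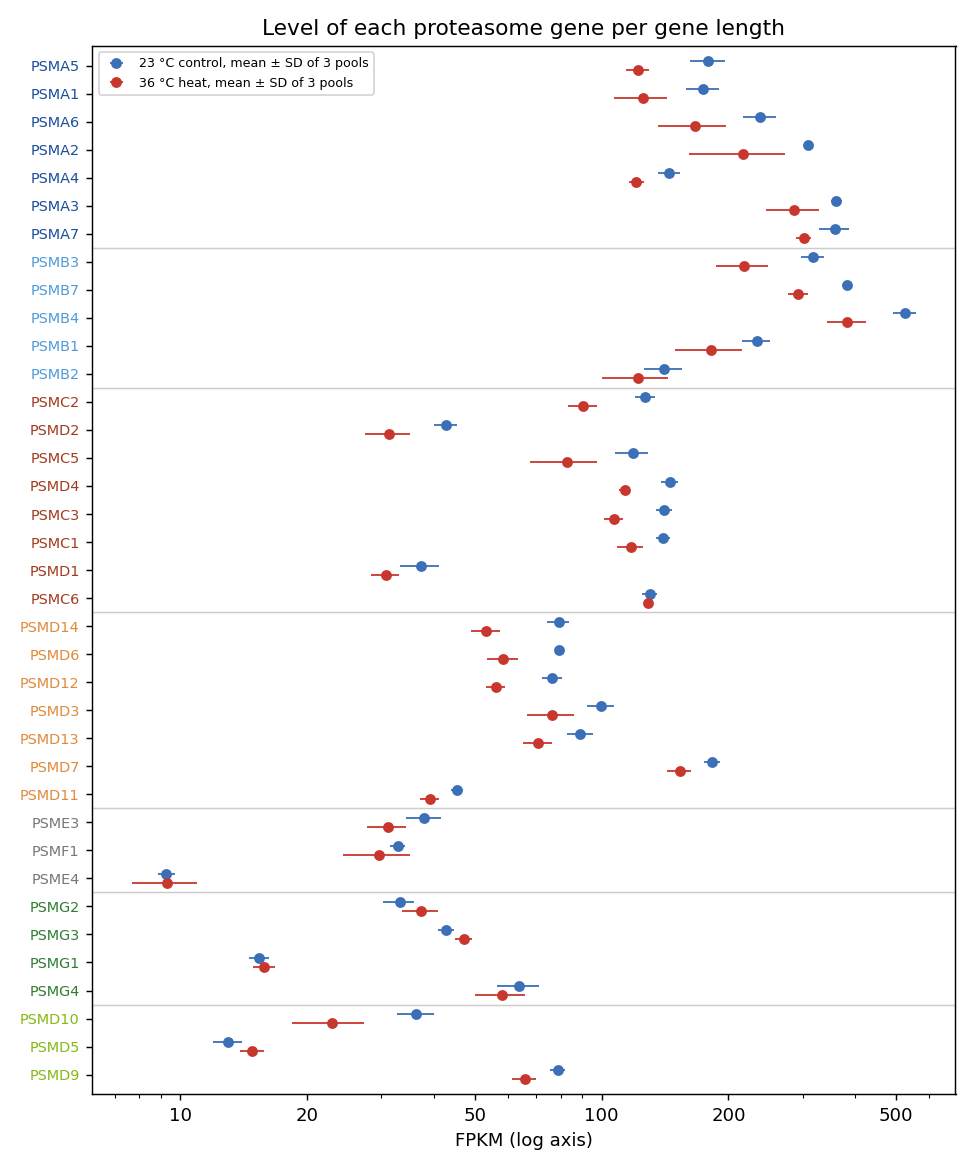
Level of each proteasome gene in FPKM (x axis, log scale), as mean ± SD of 3 control pools (blue) and 3 heat pools (red). The highest level at 23 °C is that of the core subunit PSMB4, 525 FPKM, and the lowest that of PSME4, 9.26 FPKM. For PSMD14 the means are 79.1 and 53.2 FPKM.

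Factors bound to the proteasome but named otherwise were listed by function. Of 13 tested, 7 had a negative fitted change, near the 50.3% of all tested genes, and the median was -0.07. In edgeR 0 passed after adjustment, and 2 were lower and 0 higher without it, against 9.03% and 8.87% of all tested genes. The deubiquitinases UCHL5 and USP14 had the most negative fitted changes of this list. UCHL5 measured 83.5, 77.1 and 63.0 CPM in controls against 60.1, 49.2 and 55.2 CPM under heat, without overlap (-0.44, SE 0.14, edgeR adjusted p = 0.166). USP14 was also separate (-0.44, SE 0.15, edgeR adjusted p = 0.196). ADRM1, the ubiquitin receptor that holds UCHL5, was at -0.19 (SE 0.11), and ZFAND5, which activates the proteasome, at 0.16 (SE 0.13). POMP, the chaperone that completes the core, was at -0.07 (SE 0.12), and at 0.01 with the length trend removed. ZFAND2A, a stress-inducible partner of the proteasome in mammals, was low, at 7.18 ± 1.3 and 6.23 ± 1.57 CPM (-0.21, SE 0.25).

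Of 19 genes that control proteasome expression or the related stress factors, 0 passed edgeR after adjustment and the median was 0.11. Without adjustment 2 were higher, near the 8.87% of all tested genes, and 0 lower, against 9.03%. NFE2L1 itself was at 143.5 ± 6.69 and 132 ± 12.6 CPM (-0.12, SE 0.11, edgeR adjusted p = 0.61), and its relative NFE2L2 at 158.0 ± 23.4 and 189 ± 24.5 CPM (0.26, SE 0.15, edgeR adjusted p = 0.396). NFYA, a subunit of the factor that binds CCAAT boxes, measured 47.6, 47.6 and 42.4 CPM in controls against 67.6, 86.5 and 65.2 CPM under heat. Every heat pool was above the controls (0.67, SE 0.14, edgeR adjusted p = 0.0909, DESeq2 adjusted p = 0.00299). Of the other subunits of that factor, NFYC was at -0.16 (SE 0.09), lower in every heat pool than in any control. NFYB was at -0.09 (SE 0.16), with overlap, and turned to 0.05 (SE 0.14) with the length trend removed. The small MAF factor MAFG was at 0.72 (SE 0.20, edgeR adjusted p = 0.142, DESeq2 adjusted p = 0.0359). FOXO1 and MAFK were at 0.27 (SE 0.12) and 0.23 (SE 0.13).

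UBB, which encodes ubiquitin itself as a chain of repeats, measured 3498, 3143 and 3182 CPM in controls against 3720, 5850 and 4588 CPM under heat. All heat pools were higher, heat pool 2 the most, at 0.53 (SE 0.20, edgeR adjusted p = 0.233), and 0.35 without heat pool 2. Ubiquitin genes share near-identical coding repeats, so the counting could have split reads between them and the UBB value is uncertain. Of the 16 ubiquitin, activating, conjugating and ligase genes, 0 passed edgeR after adjustment and the median was 0.08. Without adjustment 0 were lower and 2 higher, against 9.03% and 8.87% of all tested genes. The conjugating enzyme UBE2D2 (0.34, SE 0.12) and the ligase UBR1 (0.22, SE 0.10) were higher in every heat pool.

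Among 13 shuttle receptors and partners of VCP, 0 passed edgeR after adjustment, against 0.0% lower and 0.023% higher of all tested genes, and the median was 0.04. Without adjustment 1 was lower and 3 were higher, against 9.03% and 8.87%. VCP, the ATPase that pulls ubiquitinated proteins out of complexes, measured 219.5, 228.5 and 214 CPM in controls against 174, 149 and 202.5 CPM under heat, lower in each (-0.33, SE 0.14, edgeR adjusted p = 0.254). The shuttle receptor UBQLN1 (0.50, SE 0.12) and the autophagy receptor NBR1 (0.43, SE 0.11) were higher in every heat pool, with edgeR adjusted p of 0.123 and 0.124. The autophagy receptor SQSTM1 measured 118, 108 and 93.3 CPM in controls against 133, 364.5 and 179 CPM under heat. Heat pool 2 was the highest, and the log2 fold change of 1.09 (SE 0.34, edgeR adjusted p = 0.165) was 0.56 without it. Of the 13, 19, 16 and 13 genes of the 4 lists, DESeq2 called 5 higher (NFYA, MAFG, UBQLN1, NBR1 and SQSTM1) and 0 lower after adjustment, against 2.76% and 2.26% of the genes that it adjusted.

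**Figure D5:**
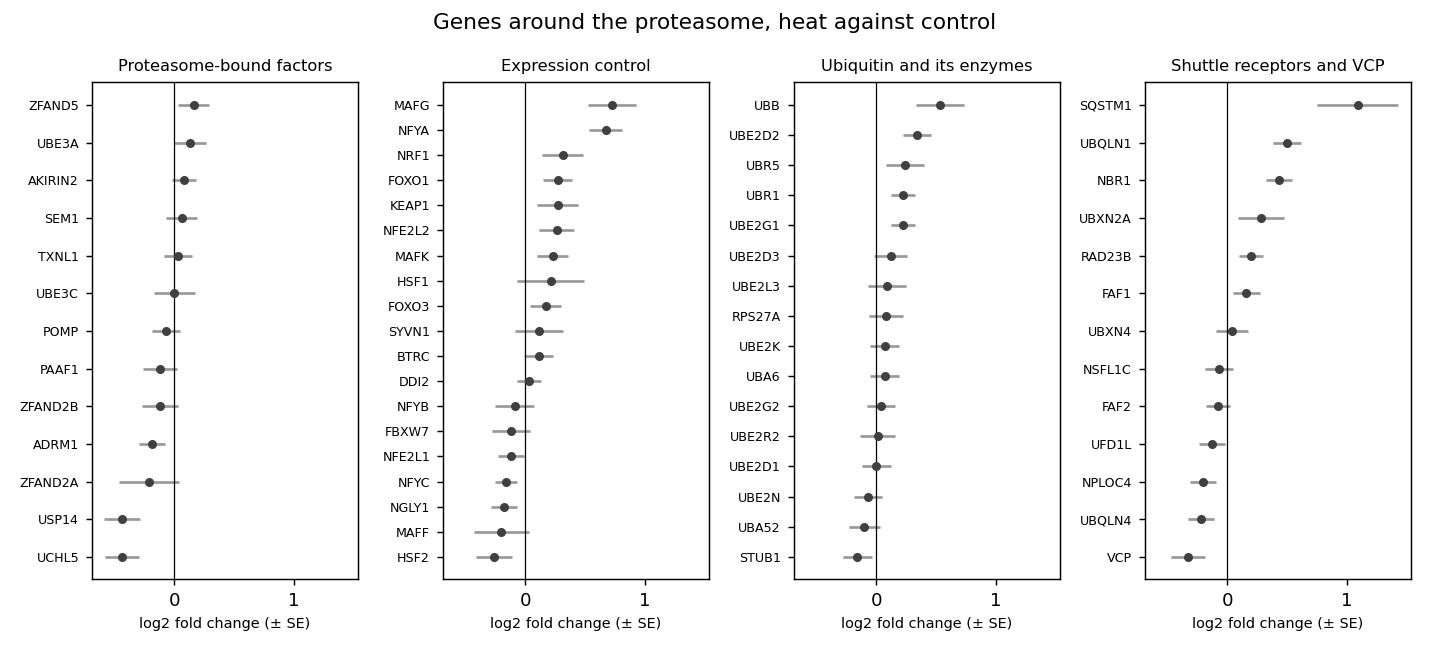
Log2 fold change ± SE of the edgeR fit, heat against control (x axis), for 13 proteasome-bound factors, 19 genes of expression control, 16 genes of ubiquitin and its enzymes and 13 shuttle receptors and VCP partners. SQSTM1 at 1.09 lies furthest to the right and UCHL5 and USP14, both at -0.44, furthest to the left, and 0 of these genes passed edgeR after adjustment.

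Across the 6 libraries, each gene's profile was correlated with the mean standardised profile of the 37 genes, a description in which all points share library and depth. Each of the 37 is itself part of that mean, which raises its r, and most had negative fitted changes. The share of all tested genes at a high r was not counted. The Pearson r was 0.79 or more for 29 subunits, caps and chaperones. PSMF1 was at 0.61, PSMG4 at 0.22 and PSMC6 at 0.04, while PSMG1, PSMD5, PSME4, PSMG2 and PSMG3 lay between -0.47 and -0.70. Outside the proteasome, the most alike profiles were those of C5H15orf57 (r = 0.997), LOC426385, LOC112531123, SEC23B, WDR61, FAAH2, CHCHD7, CNBP, NUDT21 and NNF1 (r = 0.984), chosen by that correlation over 6 libraries. Their fitted log2 fold changes ran from -0.11 (CNBP, SE 0.12) to -0.96 (LOC112531123, SE 0.40). LOC112531123, LOC426385 and CHCHD7 were low, at 0.88, 1.57 and 1.68 FPKM in control pools, where CNBP was at 682.5 FPKM.

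Markers of other cells were set beside these values. The 6 markers of dividing cells had a summed level of 271 to 333 FPKM in control and 210 to 257 FPKM in heat pools, which do not overlap. Of these 6 genes, 1 was lower at an unadjusted edgeR p under 0.05, against 9.03% of all tested genes. The 2 of 6 erythroid markers in the table summed to 79.1 to 84.2 FPKM in control and 43.2 to 66.7 FPKM in heat pools, also without overlap. Among all tested genes taken singly, all heat pools lay below all control pools for 12.9%, though a sum of markers is not a single gene. Goblet cell markers (4 of 4) summed to 1510 to 2030 and 1140 to 1630 FPKM, and T cell markers (6 of 6) to 708 to 915 and 526 to 862 FPKM. Smooth muscle markers (6 of 6) summed to 404 to 795 and 396 to 910.0 FPKM, fibroblast markers (6 of 6) to 266 to 395 and 229 to 463 FPKM. Markers of B and plasma cells (6 of 6) summed to 2740 to 5830 and 3440 to 4440 FPKM, macrophage markers (6 of 6) to 82.6 to 155 and 97.4 to 109 FPKM, and enteroendocrine markers (4 of 4) to 309 to 546 and 372 to 505 FPKM. No marker in the table was at 0 in every library. A sum can rest mostly on its most abundant marker, so median log2 fold changes over the tested markers are added. They were -0.61 for B and plasma cells, -0.55 for erythroid, -0.25 for dividing and -0.17 for enteroendocrine cells. For goblet cells, T cells, fibroblasts and macrophages they were 0.02, 0.08, 0.09 and 0.09. For enterocytes and smooth muscle they were 0.25 and 0.36. The part of cell makeup in the proteasome values was not tested.

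PSMC3IP (gene 772119), found by its letters, measured 55.1, 49.8 and 59.7 CPM in controls against 44.5, 38.7 and 40.5 CPM under heat. Every heat pool was lower (-0.41, SE 0.12, edgeR adjusted p = 0.147).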

How the data were processed

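Messenger RNA of 6 pooled libraries of hen jejunal mucosa was measured, 3 per group, with groups and replicate numbers from the sample titles. The authors deposited 1 table that gives an estimated count and an FPKM value for each gene in each library (column names in the file headers). Between 13.05% and 13.65% of the estimated counts of a library were not whole, and no label or header names the tool that made them. The submitters' processing notes name cutadapt 1.9.1, HISAT2 2.0.1, HTSeq 0.6.1, DESeq2 and the build GRCg6a, with no order or settings. Strand use in counting is not stated, so whether the counts separate overlapping genes is not known. No coordinates or sequences are given, since the gene table used for names is of another assembly (GRCg7b), and promoters were not used here. That table served to name 20 genes whose symbols had become dates.

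Estimated counts were rounded and tested with edgeR 4.0.16 (glmQLFit, glmQLFTest) in R 4.3.3, with TMM scaling, filterByExpr (minimum count 10, minimum total 15) and Benjamini-Hochberg adjustment over all 13060 tested genes, two-sided. The SE is the size of the fitted change over the root of its F statistic. CPM use TMM-scaled library sizes, and log2 CPM a prior count of 2. Gene length is that implied by count, library total and FPKM, and its trend was removed with per-library lowess offsets (span 0.3). DESeq2 1.42.0 and limma 3.58.1 (limma-trend with pseudocount 1 or 0.1 and a mean FPKM of at least 1, and voom with library weights) were alternatives. The depth sets the counting error. The fits were checked on simulated data. All simulated libraries shared the same dispersion per gene, with no trend on length and no pool of extra spread, unlike the real pools. Of genes set to differ 2-fold, edgeR found 57.6%, DESeq2 70.0% and limma-trend on FPKM 54.9%. At 4-fold the shares were 97.0%, 98.0% and 98.9%. Calls made in error came to 15 for edgeR, 44 for DESeq2 and 10 for limma-trend. DESeq2 calls in the text should be read with those 44 in mind. Differences under 2-fold were not simulated. How often changes as small as those of the proteasome genes are missed was therefore not tested. Within a group, any 2 libraries differed by a chi-square per degree of freedom of 21.3 to 62.7, so none was a repeat.

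The members and all lists were chosen with earlier results of these data known. All members may be named. Values by pool are given for the 8 members with the smallest p, the one with the smallest p in each part, and those with the highest and lowest FPKM. Values by pool of PSMA2, PSMC6, PSMD5 and PSMC3IP were added after their values were seen. Of each related list, up to 4 genes with the smallest p are named, and always POMP, ADRM1, NFE2L1, NFE2L2, UBB, VCP, SQSTM1 and ZFAND2A. NFYC and NFYB, the partners of NFYA, and the lid subunit SEM1 were added after their values were seen. Some genes of the related lists are not reported here and were left out of the list counts.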

Additional observations from a re-analysis of the deposited data

How the results depend on the processing

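The count of 3 genes past an adjusted p of 0.05 over all tested genes was 615 by DESeq2, 41 by limma-trend on log2(FPKM + 1), 1 with a pseudocount of 0.1, 0 without a filter on FPKM, 5 by voom with library weights and 20 with the replicate number as a block, and it ran from 0 to 7 without single pools. Of the proteasome genes 0 passed, and 0 passed under every alternative except DESeq2, where 2 did; the block kept 0. For the related genes the count of 0 was 5 by DESeq2. The 14 proteasome genes lower at an unadjusted p under 0.05 were 24 by limma-trend on FPKM with either pseudocount and 28 without a filter, where the median of all genes was -0.057, -0.065 and -0.028, and 15 with the block. Of all genes, the 3 limma-trend fits counted 1622, 1617 and 1934 lower and 652, 655 and 763 higher. The block counted 1233 lower and 1150 higher. Without single pools the proteasome genes counted lower ran from 7 to 24, and all genes counted lower from 850 to 1568. The length trend removed without heat pool 3, an alternative chosen after seeing the data, gave 19 lower and 2 higher, with a median of -0.28. Of all genes, 10.5% were lower and 10.3% higher there. The median of -0.27 ran from -0.35 (without heat pool 3) to -0.18 (without heat pool 2) over all alternatives. Directions turned for genes near 0: PSME4 was at -0.01 by the 3 limma-trend fits on FPKM, -0.05 with the length trend removed and -0.02 (without heat pool 2) to 0.17 without single pools; PSMC6 was at -0.01 by the same 3 limma-trend fits; PSMG4 was at 0.06 with the length trend removed, 0.18 with heat pool 3 also left out and -0.16 to 0.01 without single pools. Without single pools PSMF1 ran from -0.22 to 0.07 and ZFAND2A from -0.31 to 0.00. With the length trend removed, POMP was at 0.01 and NFYB at 0.05. The cause of these turns was not tested. In 652 further refits of single proteasome genes the direction and side of the threshold were the same, and in 2 the gene came to pass (DESeq2). The median level of 118.5 FPKM at 23 °C was 114 to 124 without single control pools. No label ties pools of one number, so the numbers were not taken to pair the pools. Deviations of same-numbered pools correlated at 0.257, 0.0891 and 0.0169, and those of pools with different numbers at -0.239 to 0.185. Heat pools 1 and 3 correlated best with the control pool of their own number, and heat pool 2 with control pool 3 (0.185).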
